A study of Mus musculus with 8 samples.

Results

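The genes described are those of the nuclear pore and of nuclear transport in mouse 2-cell embryos, chosen by symbol: numbered nucleoporins (Nup), karyopherins (Kpna and Kpnb), importins (Ipo) and exportins (Xpo). Of 55487 genes in the deposited table, 41 matched, and 1 further match with a pseudogene suffix was left out. There were 21 nucleoporins and 20 carriers (6 importin alpha genes, 8 importin beta genes and 6 exportins). All 41 are annotated as protein-coding and lie on 16 chromosomes. Of these, 40 passed the filter on low counts and entered the test between groups, and Nup210 did not. The study asked how knockdown of Polq, which encodes DNA polymerase theta, with the RNA-cutting nuclease CasRX affects the transcriptome of mouse embryos. The 4 control samples were embryos labelled wild type that received CasRX alone. The 4 knockdown samples received CasRX with a guide RNA against Polq, so that every embryo carried CasRX. Zygotes were injected 20 h after the ovulating hormone (hCG). Another 10 h passed before pools of 5 embryos, by then at the 2-cell stage, were lysed for RNA. No guide is named for the controls, and the sources used here do not give the mouse strain. The series text calls the pools of a group biological replicates.

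The nuclear pore is a ring-shaped channel through the nuclear envelope, built from many copies of a limited set of nucleoporins arranged in stacked rings. Importins carry proteins with a nuclear localisation signal inward and exportins carry cargo outward, and the small GTPase Ran sets the direction by binding carriers inside the nucleus. In early embryos the maternal store of these proteins and RNAs serves the first nuclei, before and while the embryo's own genome is switched on.

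Controls held between 33311665 and 43748621 counts per library. Knockdown-labelled replicates 1 to 4 held 4726159, 8627403, 8100969 and 33650050 counts. The median count of the 41 genes was 790 to 1062 in the 5 deep libraries, and 113, 204 and 236 in knockdown-labelled replicates 1, 2 and 3. Levels are given as counts per 1000000 (CPM) after TMM scaling (trimmed mean of M values), as mean ± SD of 4 libraries with controls first, and per kb of annotated exons where genes are compared with each other. Because each library is a pool, fewer contributing embryos or cells and less RNA per cell cannot be told apart. Polq itself did not separate the groups. It was at 32.7 to 49.7 CPM among controls and 16.9 to 41.1 CPM among knockdown-labelled libraries, with a 2-sided exact permutation p of 0.343, where 0.0286 is the smallest possible. In the edgeR fit Polq was at 80.4% of control, with a 95% interval from 47.8% to 135%. That interval holds both no change and a fall to 50% of control. The libraries are therefore named by their label. The 13 oocyte markers examined were all present and summed to 38971 to 45235 CPM among controls and 32152 to 48597 CPM among knockdown-labelled libraries. Most of this sum was Dppa3, with a mean of 36017 CPM over all libraries. The 12 markers of the 2-cell stage found in the table summed to 951 to 2290 CPM and 1039 to 2114 CPM. Of 10 cumulus and granulosa cell markers, 6 had no count in any library, Has2, Ptx3 and Fshr among them. Tnfaip6 was the highest of the list, with a mean of 4.64 CPM over all libraries. The list summed to 0 to 19.4 CPM and 0.793 to 10.7 CPM. Of 5 markers of the blastocyst stage, Cdx2 and Sox17 had no count, while Fgf4 was the highest with a mean of 41.8 CPM over all libraries. The list summed to 16.5 to 52.3 and 19.2 to 85.97 CPM. The 3 blood markers summed to 0.0229 to 16.2 and 5.83 to 9.12 CPM.

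The most abundant of these RNAs per kb were Kpna2, Nup43, Kpna3, Nup62cl and Xpo1, and Kpna2, Nup43, Nup62cl, Xpo1 and Nup35 ranked first in their class in 8 of 8 libraries. No member passed the edgeR test between the groups in either direction, and neither did any other of the 13146 genes tested (0% called). Together the 41 genes made up 2357 to 2702 CPM among controls and 2477 to 2718 CPM among knockdown-labelled libraries, so that the summed levels overlapped. Per kb of exons, the mean over 8 libraries ran from 136 CPM for Kpna2 down to 0.325 CPM for Ipo13, a ratio of 420.2, and Nup210 was lower still. With the length of the longest transcript in place of the union of exons the ratio was 502.

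**Figure D1:**
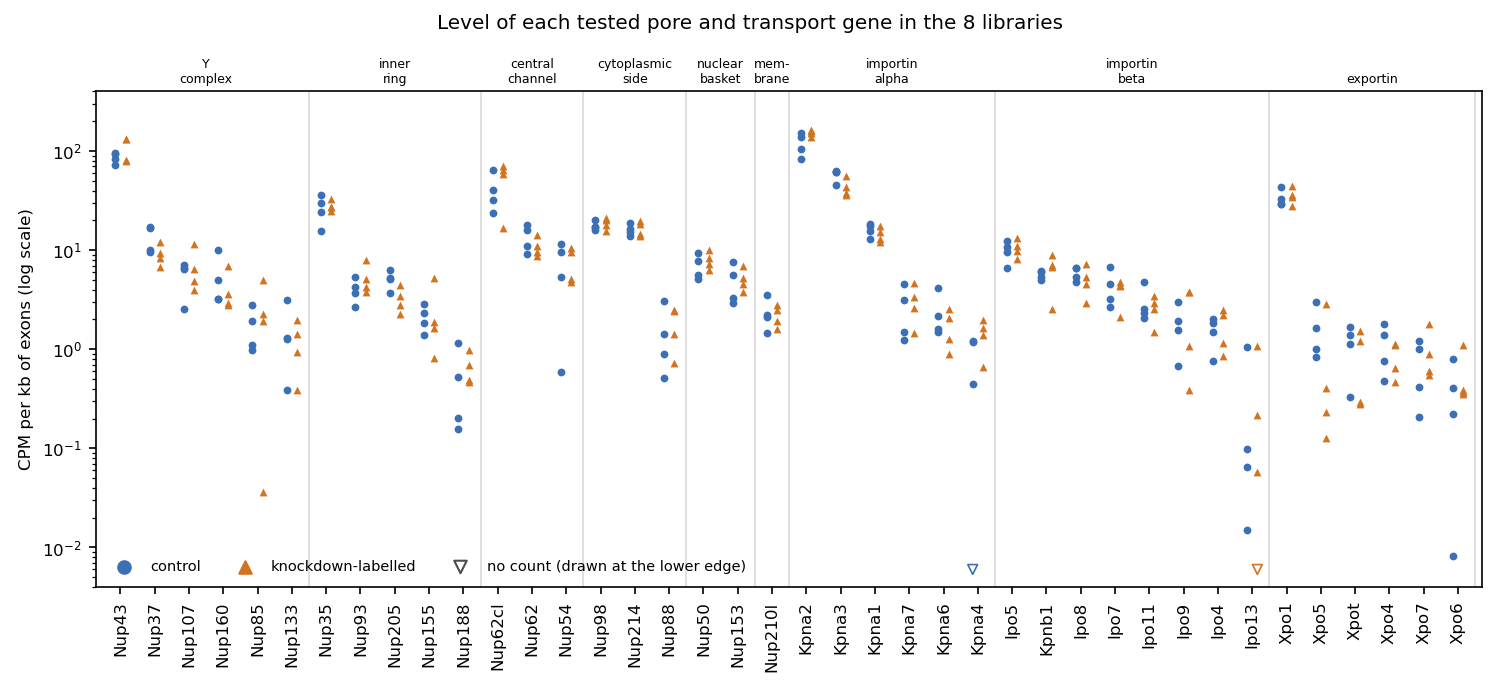
Level of the 40 tested genes in each library, as CPM per kb of exons on a log axis, with controls as circles and knockdown-labelled libraries as triangles; open symbols at the lower edge stand for libraries without a count. Kpna2 and Nup43 lie highest. Ipo13, Xpo6 and Nup54 spread over more than a factor of 10 within the controls, and Kpna4 has no count in control replicate 1.

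The outer ring of the pore is built from Y-shaped complexes whose subunits are held in fixed proportion as proteins. The RNAs of the 6 members placed in this class were far apart, and Nup43 alone made up 72.3% to 83.8% of their summed level per kb. Pore genes that the symbol rule does not match are not in this sum. Among these, Seh1l was at 22.1, Ahctf1 at 5.94 and Sec13 at 5.81 CPM per kb. The sum also leaves out Nup98 (18.1 CPM per kb), whose transcript gives rise to the Y-complex protein Nup96 as well. Nup98 is grouped below with the cytoplasmic side. Nup43, a beta-propeller subunit (chromosome 10 from 7667503 to 7678881, plus strand, GRCm38), stood at 238, 186, 213 and 247 CPM in control replicates 1 to 4. In knockdown-labelled replicates 1 to 4 it was at 209.6, 201, 341 and 337 CPM. Replicates 3 and 4 were above every control, while replicates 1 and 2 lay inside the control range (221 ± 27.6 against 272 ± 77.4 CPM, log2 fold change 0.30, SE 0.22). Nup37, a further beta-propeller subunit that binds Nup160, was at 33.7, 31.7, 55.3 and 57.5 CPM among controls and 40.1, 27.9, 22.5 and 31.4 CPM among knockdown-labelled libraries. The groups overlapped in replicate 1 of the latter (44.5 ± 13.7 against 30.5 ± 7.35 CPM, log2 fold change −0.55, SE 0.32). Per kb, the other members placed in this class followed in the order Nup37 (11.3 CPM over 8 libraries), Nup107 (6.24), Nup160 (4.71), Nup85 (2.02) and Nup133 (1.35). Nup85, which forms an arm of the Y with Nup43, had the widest range of them. It had 1 count, or 0.121 CPM, in knockdown-labelled replicate 2 and 17.1 CPM in replicate 4, against 3.33 to 9.48 CPM among controls. Nup133, which binds curved membrane, ran from 2.72 to 22.1 CPM among controls and from 2.76 to 13.9 CPM among knockdown-labelled libraries.

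In the inner ring, which lines the pore at the membrane, Nup35 led in all 8 libraries with 52.1% to 75.4% of the summed level per kb of 5 members. Nup35 binds the membrane and other inner ring subunits, and was at 82.5, 101, 52.2 and 120.5 CPM among controls. It was at 109.9, 91.1, 83.8 and 91.9 CPM among knockdown-labelled libraries, all inside the control range (89.02 ± 29.1 against 94.2 ± 11.1 CPM, log2 fold change 0.08, SE 0.27). The large scaffold subunit Nup205 had the most negative log2 fold change among the 20 tested nucleoporins of the set. It stood at 34.6, 49.05, 59.2 and 47.3 CPM among controls and at 41.6, 21.02, 25.9 and 32.1 CPM among knockdown-labelled libraries. Knockdown-labelled replicate 1 exceeded control replicate 1, so that the groups overlapped (47.5 ± 10.1 against 30.2 ± 8.90 CPM, log2 fold change −0.66, SE 0.31). With an edgeR p of 0.0574, its Benjamini-Hochberg adjusted p was 1.0. Nup93, which joins Nup205 to the central channel, went the other way without passing. It was at 11.5, 15.9, 22.8 and 17.97 CPM and at 22.01, 16.3, 18.1 and 33.8 CPM (17.03 ± 4.72 against 22.6 ± 7.86 CPM, log2 fold change 0.41, SE 0.39). Nup188, the close relative of Nup205, was lower than all other inner ring genes per kb (0.583 CPM), at 0.977 to 7.15 CPM among controls and 2.89 to 6.17 CPM among knockdown-labelled libraries. Nup155 was at 25.1 ± 7.44 and 28.6 ± 23.4 CPM, the second mean resting largely on 62.7 CPM in replicate 2.

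Of the 2 genes of the membrane-spanning Nup210 kind, the paralog Nup210l was the one expressed. Nup210, a glycoprotein of the pore membrane, had 1 count in control replicate 1, 1 in control replicate 4 and 0 in the other 6 libraries, and was too low to test. A count of 0 allows up to 3 counts, or 0.0686 to 0.595 CPM by library, a limit that covers counting error only. Nup210l was at 11.98, 12.8, 20.3 and 8.42 CPM among controls and at 10.9, 9.11, 15.8 and 14.3 CPM among knockdown-labelled libraries, which rest on 2769 counts in all. The knockdown-labelled values lay within the control range (13.4 ± 4.97 against 12.5 ± 3.07 CPM).

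A second pair of paralogs, in the central channel, differed less, and both of its genes were expressed. Nup62 encodes a nucleoporin rich in phenylalanine and glycine repeats that fills the channel, and Nup62cl is its X-linked relative. Per kb, Nup62cl was higher than Nup62 in 8 of 8 libraries, by 1.18 to 8.06-fold with a median of 3.94-fold. Nup62cl was at 90.8, 52.6, 71.2 and 144 CPM among controls and at 144, 37.8, 131 and 156 CPM among knockdown-labelled libraries (log2 fold change 0.39, SE 0.44). Nup62 was at 50.99, 25.9, 45.7 and 31.7 CPM among controls and at 27.2, 40.9, 31.5 and 24.8 CPM among knockdown-labelled libraries (log2 fold change −0.31, SE 0.32). For each gene the ranges of the groups overlapped. Their partner Nup54 was at 1.95 CPM in control replicate 2 and at 16.1 to 38.2 CPM in the other 7 libraries. The 250 bases before the RefSeq start of both paralogs are shown because their RNAs differ in level. Both are given 5′ to 3′ on the strand of the gene, with CCAAT boxes (CCAAT or its complement ATTGG) in capitals. The windows are chr7:44815838-44816087 on the plus strand for Nup62 and chrX:140062569-140062818 on the minus strand for Nup62cl (GRCm38.p6).
Nup62: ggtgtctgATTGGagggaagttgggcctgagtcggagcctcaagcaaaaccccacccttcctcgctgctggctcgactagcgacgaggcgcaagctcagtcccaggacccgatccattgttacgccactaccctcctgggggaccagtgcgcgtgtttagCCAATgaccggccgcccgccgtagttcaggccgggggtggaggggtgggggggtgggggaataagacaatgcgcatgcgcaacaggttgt
Nup62cl: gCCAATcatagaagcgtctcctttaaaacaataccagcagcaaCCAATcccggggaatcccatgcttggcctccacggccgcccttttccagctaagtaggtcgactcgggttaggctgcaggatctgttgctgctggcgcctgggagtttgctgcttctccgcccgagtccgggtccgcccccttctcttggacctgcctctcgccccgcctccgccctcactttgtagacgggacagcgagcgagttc
Each window holds 17 CpG dinucleotides and 2 CCAAT boxes, which start 242 and 90 bases before the Nup62 start and 249 and 207 bases before the Nup62cl start. The paralogs therefore shared both counts while their box positions differed. The Nup62 window ends at the GENCODE start of the gene. The RefSeq start of Nup62cl lies 144 bases inside the GENCODE span, which covers part of its window.

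Nup98, Nup214 and Nup88 were grouped as the cytoplasmic side by the gene list used, although Nup98 is not confined to that side. The 2 large genes among them were steady and close to each other. Nup98 encodes a repeat-rich nucleoporin that also serves mRNA export, and its transcript gives rise to the scaffold protein Nup96 as well. It was at 202, 214, 216 and 252 CPM among controls and at 199, 268, 254 and 224 CPM among knockdown-labelled libraries. Replicate 1 of the latter was just below all controls and replicates 2 and 3 just above (221 ± 21.8 against 236 ± 30.99 CPM, log2 fold change 0.10, SE 0.17). Nup214, the platform for the export helicase, was at 134 to 180.2 CPM among controls and 135 to 189.7 CPM among knockdown-labelled libraries. Per kb of the union of exons, Nup98 exceeded Nup214 in 6 of 8 libraries, with a median ratio of 1.06. With the longest transcript as the length it did so in 8 of 8, with a median ratio of 1.37, so that their order depends on the length used. Nup88, the partner of Nup214, was low at 12.1 ± 9.30 and 14.4 ± 6.94 CPM, and shares exonic bases with Rabep1 on the other strand. The 2 genes of the nuclear basket were alike in level: Nup50 was at 34.2 ± 9.85 and 39.2 ± 7.93 CPM and Nup153 at 34.1 ± 15.5 and 35.99 ± 9.32 CPM. Nup50, which helps release cargo from importin alpha, was at 24.9, 38.02, 46.4 and 27.7 CPM among controls and at 49.4, 35.8, 30.7 and 40.7 CPM among knockdown-labelled libraries, where replicate 1 was just above the highest control.

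Importin alpha proteins hold the nuclear localisation signal of the cargo and are themselves carried by importin beta. Their 6 genes fell into 3 abundant and 3 scarce ones, and the order Kpna2, Kpna3, Kpna1 held in 8 of 8 libraries per kb. The other 3, Kpna7, Kpna6 and Kpna4, each lay below Kpna1 in all 8 libraries and made up 1.53% to 5.25% of the summed level together. Their own order was not fixed, with Kpna7 above Kpna6 in 6 of 8 libraries and Kpna6 above Kpna4 in 6 of 8. Kpna2 was at 240.2, 303, 399 and 435 CPM among controls and at 436, 463, 464 and 398 CPM among knockdown-labelled libraries. Replicates 1, 2 and 3 of the latter exceeded all controls and replicate 4 did not (344 ± 88.8 against 440.1 ± 30.97 CPM, log2 fold change 0.35, SE 0.20). The edgeR p was 0.104 and the adjusted p 1.0. Kpna3 was at 196, 267, 269.8 and 266 CPM among controls and at 239, 185, 153 and 162 CPM among knockdown-labelled libraries. Here replicates 2, 3 and 4 lay below all controls, while replicate 1 lay above control replicate 1 (249.6 ± 35.7 against 185 ± 38.6 CPM, log2 fold change −0.43, SE 0.20). Its edgeR p of 0.0525 was the smallest of the 40 genes, with an adjusted p of 1.0. Kpna1 was at 137 ± 20.9 and 123 ± 21.3 CPM.

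Kpna7, known in mammals as the importin alpha of oocytes and early embryos, was scarce in these libraries. It was at 3.88, 14.4, 4.64 and 9.77 CPM among controls and at 10.5, 8.14, 4.62 and 14.7 CPM among knockdown-labelled libraries, with wholly intermixed values. Per kb, Kpna2 exceeded it by 23.02 to 109-fold, with a median of 55.3-fold over the 8 libraries. Part of the Kpna7 exons overlap Arpc1a on the other strand, which stood at 78.9 CPM, and with the strand setting not given their reads cannot be told apart. Kpna4 had no count in control replicate 1, a limit of 0.0917 CPM, and was at 3.98 to 10.96 CPM in the other controls and 5.95 to 17.8 CPM among knockdown-labelled libraries. The windows before the RefSeq starts of Kpna2 and Kpna7 are shown because these are the most abundant importin alpha gene and its oocyte relative. They are chr11:106999526-106999775 for Kpna2 and chr5:145009637-145009886 for Kpna7, both on the minus strand (GRCm38.p6), written as above with CCAAT boxes in capitals.
Kpna2: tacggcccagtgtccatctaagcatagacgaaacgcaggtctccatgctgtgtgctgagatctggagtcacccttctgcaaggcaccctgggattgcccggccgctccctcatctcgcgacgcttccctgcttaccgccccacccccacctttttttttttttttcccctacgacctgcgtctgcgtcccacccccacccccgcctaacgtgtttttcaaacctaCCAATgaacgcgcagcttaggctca
Kpna7: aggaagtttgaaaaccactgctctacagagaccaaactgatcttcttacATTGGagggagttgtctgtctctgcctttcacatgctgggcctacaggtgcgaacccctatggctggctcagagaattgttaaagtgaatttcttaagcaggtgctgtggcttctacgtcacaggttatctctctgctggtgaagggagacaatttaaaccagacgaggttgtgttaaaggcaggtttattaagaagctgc
Kpna2 has 16 CpG dinucleotides in this window and Kpna7 has 3. Each has 1 CCAAT box, 25 bases before the start in Kpna2 and 201 bases before it in Kpna7. The RefSeq start of Kpna7 lies 74394 bases inside the GENCODE span of the gene, so that other start sites of Kpna7 are not covered.

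The shares of Kpna2 and Kpna3 in the importin alpha family did not overlap between the labels, although the CPM of each gene overlapped. Kpna2 made up 55.6%, 55.4%, 62.1% and 64.5% of the summed level per kb in control replicates 1 to 4. In the knockdown-labelled libraries its share was 65.5%, 72.8%, 75.3% and 69.3%. All 4 shares lay above the highest control (59.4% ± 4.59 against 70.7% ± 4.25, SD, n = 4). Kpna3 made up 30.4%, 32.6%, 28.1% and 26.4% in the controls and 24.0%, 19.4%, 16.7% and 18.9% in the knockdown-labelled libraries, all 4 below the lowest control. Shares within a family depend on each other, so these are not separate results, and no test was set for them. Replicates 1, 2 and 3 of the knockdown-labelled group were shallow and replicate 4 was as deep as the controls. The part of depth in these shares was not tested. The other 4 shares overlapped. With the longest transcript as the length, again 2 of the 6 shares did not overlap. Kpna7 made up 1.31% ± 0.787 and 1.41% ± 0.699. For the CPM of single genes, 2.98% of the 13146 tested had groups that did not overlap, and none of the 40 members was among them. That percentage is no background for shares, and how often shares in other gene families do not overlap was not examined.

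**Figure D2:**
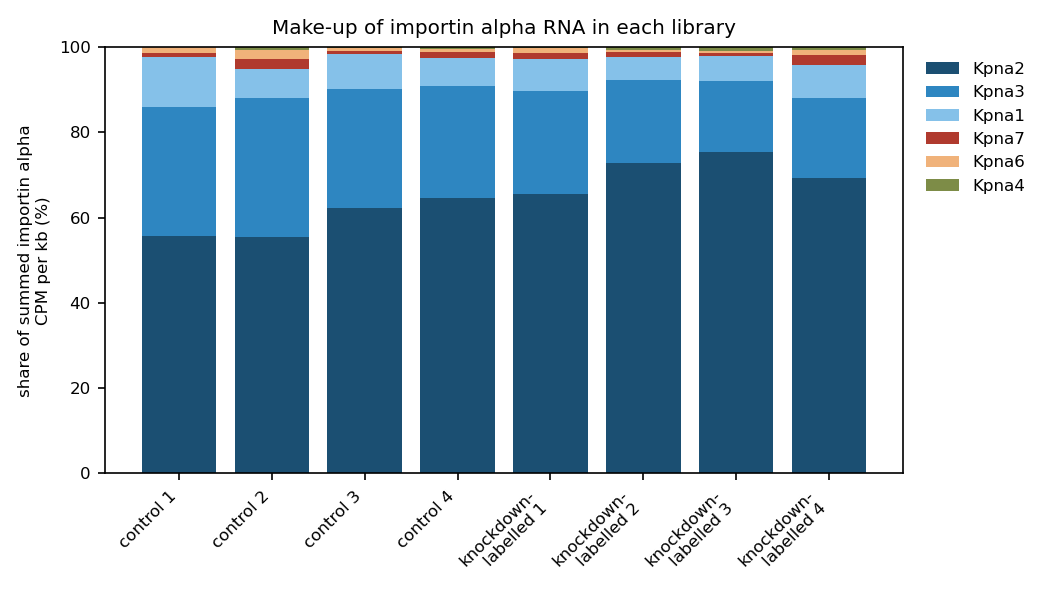
Share of each importin alpha gene in the summed CPM per kb of the family, one stacked bar per library. The Kpna2 segment runs from 55.4% to 64.5% in the controls and from 65.5% to 75.3% in the knockdown-labelled libraries.

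Importin beta proteins bind the nucleoporins of the channel and carry cargo through it, directly or by way of an adaptor. Ipo5, which brings ribosomal proteins and histones into the nucleus, had the highest level per kb over 8 libraries (10.2 CPM), ranked first in 7 of 8 libraries and made up 21.7% to 42.1% of the class. It stood at 64.4, 40.1, 57.2 and 73.96 CPM among controls and at 66.6, 49.1, 59.3 and 79.00 CPM among knockdown-labelled libraries, with ranges that nearly coincide. Kpnb1, the importin beta that pairs with importin alpha, was far below Kpna2 in level per kb (5.999 against 136 CPM). It was narrow in the controls, at 33.1, 35.2, 39.5 and 40.96 CPM, and wider in the knockdown-labelled libraries, at 16.9, 59.3, 46.7 and 44.7 CPM. Replicate 1 lay below and the other 3 above all controls (37.2 ± 3.69 against 41.9 ± 17.9 CPM, log2 fold change 0.17, SE 0.36). Ipo8, which carries Argonaute and SMAD proteins, was at 92.3 ± 14.7 and 79.1 ± 27.8 CPM. With the longest transcript as the length, Ipo8 and not Ipo5 led the class. Ipo7 was at 48.2 ± 20.4 and 43.9 ± 13.7 CPM, Ipo11 at 22.9 ± 9.66 and 20.6 ± 6.56 CPM, Ipo9 at 14.8 ± 7.96 and 18.7 ± 14.9 CPM and Ipo4 at 7.17 ± 2.61 and 7.87 ± 3.75 CPM. Ipo13, the rare carrier that works in both directions, was the lowest tested member. Its level was 4.46 CPM in control replicate 1 and 4.56 CPM in knockdown-labelled replicate 1, and 0 to 0.909 CPM in the other 6 libraries.

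Among the exportins, Xpo1 held 81.6% to 94.5% of the summed level per kb. Xpo1 (chromosome 11 from 23256041 to 23298249, plus strand, GRCm38) is the general receptor for leucine-rich export signals. It was at 309.6, 208, 237 and 209 CPM among controls and at 257, 248, 321 and 202 CPM among knockdown-labelled libraries. The groups covered the same range (241 ± 47.9 against 257 ± 48.7 CPM, log2 fold change 0.09, SE 0.20). The specialised exportins were all low and scattered. Xpot, the tRNA exporter, was at 6.83 ± 3.49 and 4.96 ± 3.80 CPM, and Xpo4 at 11.9 ± 6.48 and 8.97 ± 3.57 CPM. Xpo5, which exports microRNA precursors, was at 6.91, 5.76, 20.8 and 11.3 CPM among controls and at 2.78, 1.58, 19.8 and 0.877 CPM among knockdown-labelled libraries. Of these, replicates 1, 2 and 4 lay below all controls and replicate 3 near the top of them (log2 fold change −0.84, SE 0.996). Xpo6, the exporter of actin, was at 6.07 ± 5.65 and 9.39 ± 6.17 CPM. Xpo7 was at 13.5 ± 9.03 and 18.3 ± 11.03 CPM, and shares exonic bases on the same strand with the oocyte gene Npm2, which was at 232 CPM, so that its level is uncertain.

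The promoters of the class had in common a high density of CpG. RefSeq windows were matched for 32 of the 41 genes. In the 250 bases before the start the median number of CpG dinucleotides was 21.5 for these 32 genes, with a range from 3 for Kpna7 to 42 for Ipo5. The median was 15 for the 8842 tested genes with a window, these 32 included where tested. At least 10 CpG stood in 30 of 32 windows (93.8%), against 70.5% of the tested genes and 46.1% of all 20499 genes with a window. The 2 exceptions were Kpna7 and Nup160. CCAAT or ATTGG was found in 17 of 32 windows (53.1%), against 38.1% of the tested genes. TATAAA or its complement TTTATA was found in 2 of 32 (6.25%), Ipo7 and Nup160, against 7.08%. The motifs were searched separately, and matches may share bases. These are counts of letters and say nothing about factor binding.

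No nuclear pore or transport RNA passed the test between the groups. With edgeR's quasi-likelihood test and Benjamini-Hochberg adjustment at 0.05, 0 of the 40 tested members were higher and 0 were lower. It called 0% of all 13146 genes in either direction. At an unadjusted p under 0.05 it gave 0 of 40 members, where 2.81% of all genes passed. DESeq2 called 0 members, against 0.106% of all genes higher and 0.0456% lower, and 0 members at an unadjusted p under 0.05, against 4.24% of all genes. Limma-voom called 0 members and 0 genes, with Kpna3 and Xpo5 at an unadjusted p under 0.05, as were 6.56% of all genes. Log2 fold changes were positive in 25 members and negative in 15 (62.5% positive, against 46.6% of all genes tested). Their median was 0.10, against −0.05 over all genes. Within groups, the members' median log2 CPM had an SD of 0.104 between libraries, and the difference in medians was not tested. The 20 tested nucleoporins had 14 positive values and a median of 0.13, and the 20 carriers 11 positive values and a median of 0.10.

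**Figure D3:**
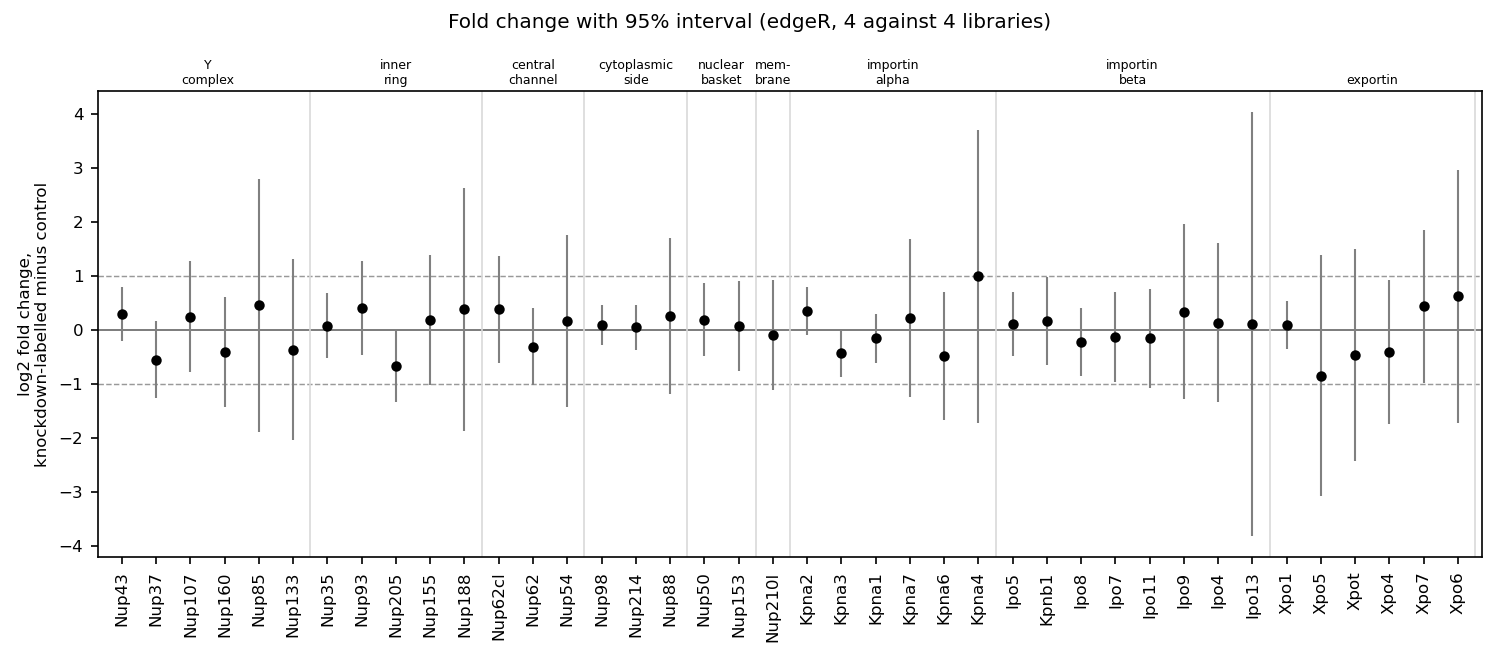
Log2 fold change of each tested gene, knockdown-labelled minus control, with its 95% interval from edgeR; dashed lines mark a 2-fold change either way. Every interval includes 0, and the width grows from the abundant genes such as Nup98 to Ipo13.

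How small a difference could have been seen depended on abundance. For 14 of the 40 members the 95% interval of the fold change stayed inside 2-fold either way, and for Nup98, Nup214 and Xpo1 inside 1.5-fold. Nup98 was at 107% of control with an interval from 82.8% to 138%, and Xpo1 at 107% with an interval from 78.2% to 146%. Kpna2 was at 128% (94.1% to 174%), Nup43 at 123% (87.4% to 174%) and Kpna3 at 74.03% (54.6% to 100.4%). For these genes a change of 2-fold lay outside the interval. At the other end, Ipo13 had an interval from 7.16% to 1627% of control, with SDs of log2 CPM of 1.41 in the controls and 1.46 in the knockdown-labelled group. The 8 members at 100 to below 1000 CPM had a median interval of 1.36-fold either way and the 3 at 50 to 100 CPM one of 1.51-fold. For the 19 at 10 to 50 CPM it was 2.02-fold, and for the 10 below 10 CPM it was 4.71-fold. Over all genes tested in the same ranges the medians were 1.44-fold, 1.62-fold, 2.17-fold and 8.93-fold. In each of these ranges the members' median lay below that of all genes. Levels within a range were not matched, and the difference was not tested.

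**Figure D4:**
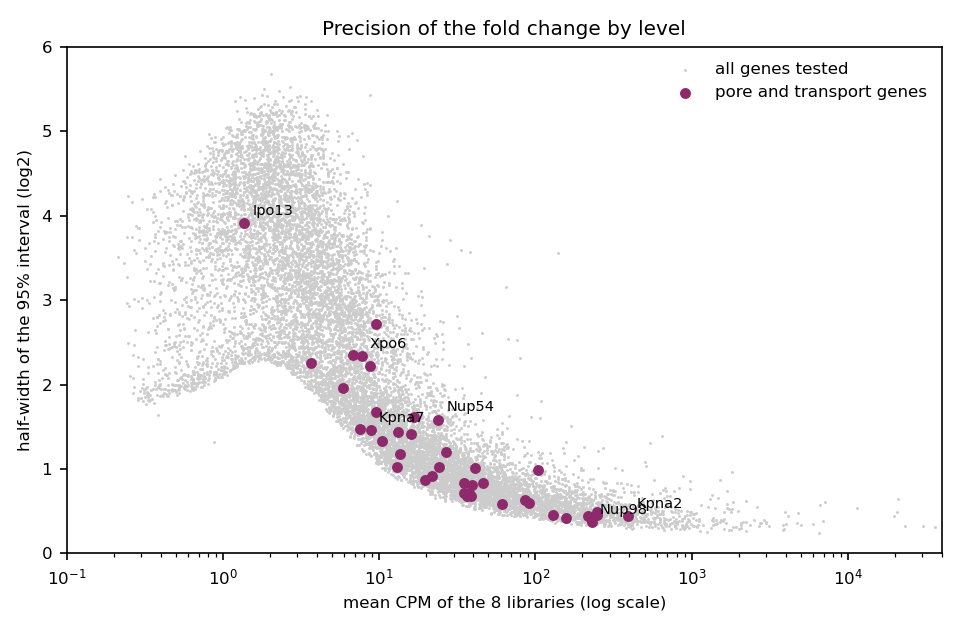
Half-width of the 95% interval of the log2 fold change against the mean CPM of the 8 libraries on a log axis, with the 40 tested pore and transport genes over all 13146 tested genes. The members follow the cloud of all genes, from a wide interval at Ipo13 to a narrow one at Nup98.

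Partners whose symbols the rule does not match were examined from a separate list. Of 47 other genes of the pathway found in the table, 46 were tested, and 0 passed in either direction, with log2 fold changes positive in 23 and negative in 23 (median 0.007). Ran, the GTPase that sets the direction of transport, was at 148, 147, 174 and 271 CPM among controls and at 141, 202, 213 and 273 CPM among knockdown-labelled libraries, with overlapping ranges (log2 fold change 0.17, SE 0.27). Among 14 tested other pore genes, Pom121, a membrane nucleoporin, had the smallest p of a higher gene. It was at 16.3, 4.44, 22.8 and 15.7 CPM among controls and at 46.9996, 23.9, 22.6 and 21.7 CPM among knockdown-labelled libraries (log2 fold change 0.96, SE 0.51). Control replicate 3 lay among the knockdown-labelled values. Phax, the export adaptor of small nuclear RNAs, was at 62.9, 37.1, 51.1 and 55.3 CPM among controls and at 36.7, 51.03, 93.02 and 118 CPM among knockdown-labelled libraries, with replicates 3 and 4 above all controls and replicate 1 just below them (log2 fold change 0.54, SE 0.37). In the 16 mRNA export genes, the helicase Ddx19a, which acts at the cytoplasmic face of the pore, was the 1 partner with groups that did not overlap and with an unadjusted p under 0.05. Over all genes these shares were 2.98% and 2.81%, so that 1 of 46 is near the background. Ddx19a was at 14.4, 17.3, 26.5 and 24.7 CPM among controls and at 12.3, 6.56, 7.28 and 9.78 CPM among knockdown-labelled libraries (log2 fold change −1.21, SE 0.43). By edgeR its p of 0.0178 became an adjusted p of 1.0 over all genes. Thoc5 of the export complex TREX was at 8.90, 23.97, 14.7 and 7.49 CPM among controls and at 3.57, 5.71, 2.31 and 9.15 CPM among knockdown-labelled libraries (log2 fold change −1.40, SE 0.66). Replicates 1, 2 and 3 of the latter lay below all controls and replicate 4 inside their range.

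The channel nucleoporin listed as Nupl1, the former symbol of Nup58, had no count in any library. It shares exonic bases on the same strand with the predicted gene Gm49336, which held 7730 counts and 158 to 2409 per library. These 2 were singled out after their values were seen, and reads of overlapping genes cannot be told apart in a table of gene counts.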

How the data were processed

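RNA was measured by sequencing in 8 libraries of mouse 2-cell embryos, 4 per group. The authors deposited expected counts, which apportion reads shared between genes. The submitters' processing notes name RSEM 1.2.28, STAR 2.7.3a, Trim Galore 0.6.10 and the build GRCm38 (mm10). Strand setting, annotation release and any removal of duplicates: not given in the sources used here.

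Counts were rounded, which altered 4.22% of values. Groups were compared with edgeR 4.0.16 in R 4.3.3 (quasi-likelihood, robust, group as the only term, filterByExpr with minimum count 10 and total 15, TMM), and p-values were adjusted by Benjamini-Hochberg over 13146 genes at a threshold of 0.05. The procedure was also run on simulated data, and the outcome is not given here. The common biological coefficient of variation (spread between libraries beyond counting error) was 0.987. A positive log2 fold change means more RNA in the knockdown-labelled group, and intervals are at 95%. Exon lengths and positions come from GENCODE release M21, where all 41 symbols matched, and promoter windows from RefSeq (GRCm38.p6). For 30 of the 32 windows the bases after the start were found in a GENCODE transcript of the gene. Overlap of exons with another gene was found for 9 members on the other strand and 7 on the same strand.

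The members, gene lists, tests and alternatives were chosen with earlier results of these data known. Given in full are the most abundant member per length of each class, the 3 members with the smallest p in each direction, any whose groups do not overlap (none), and Kpna7, Kpna2, Kpnb1, Xpo1, Nup62 and Nup98, and of the partners Ran and the 2 with the smallest p in each direction. Nup54, Nup85, Ipo13 and Xpo5 were added after their values were seen. The alternatives tried were scaling by DESeq2 size factors or by library totals alone, no filter, 5 CPM in 4 libraries, DESeq2 1.42.0, limma-voom (limma 3.58.1), a replicate block, each library left out, the 3 shallow libraries left out, thinning to the smallest total, and the longest transcript as the length.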

Additional observations from a re-analysis of the deposited data

Results flagged for a closer look

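In 40 members and Polq, 82 groups of 4 libraries were examined for a library whose gap to its neighbour took up most of the range of its group, and 6 were found. Chance gives about 1 in 20 groups. Kpna3 was at 196 CPM in control replicate 1 against 266 to 269.8 CPM in the other controls, on 6418 counts. Nup107 was at 9.92 CPM in control replicate 2 against 24.7 to 27.4 CPM. Ipo13 was at 4.46 CPM in control replicate 1 against 0.0630 to 0.419 CPM. In the knockdown-labelled group, Xpo5 was at 19.8 CPM in replicate 3 against 0.877 to 2.78 CPM, on 171 counts. In replicate 1, which is the shallowest library, Xpo6 was at 18.6 CPM against 6.01 to 6.58 CPM and Ipo7 at 23.6 CPM against 48.7 to 53.6 CPM, on 94 and 119 counts. The part of depth in these values was not tested.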

How the results depend on the processing

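Under all 17 alternatives to the main test, 0 members and 0 partner genes were called in either direction. DESeq2 called 14 genes higher and 6 lower over the whole table. The median log2 fold change of the members stayed positive, from 0.025 to 0.12 with 1 library left out and from 0.055 to 0.14 otherwise, and 21 to 25 members were positive. These fits share libraries, so an unchanged sign is not separate support. Within groups, the members' median log2 CPM had an SD of 0.104 between libraries. Over all genes tested the median ran from −0.079 to −0.020 with 1 library left out and from −0.36 to 0.046 otherwise. Without the 3 shallow knockdown-labelled libraries, which leaves 1 library in that group that is assumed to vary like the controls, the values turned for Polq (0.073), Xpo1 (−0.24) and Nup210l (0.10). Nup210l also turned with limma-voom (0.047) and with thinning (0.0061). With 1 library left out, directions turned for Xpo1 (−0.031 to 0.24), Ipo5 (−0.033 to 0.24), Nup35 (−0.11 to 0.26), Nup210l (−0.26 to 0.18), Kpna7 (−0.079 to 0.64), Kpnb1 (−0.032 to 0.43) and Ran (−0.00056 to 0.41). None of these passed a test, and the cause was not tested. With the longest transcript as the length, Kpna2 stood at 168 and 214 CPM per kb in place of 119.8 and 153, and Kpna3 made up 23.6% and 15.5% of importin alpha in place of 29.4% and 19.7%, because the lengths themselves differ. The mean Kpna2 share was 57.7% to 60.8% with 1 control left out and 69.2% to 72.4% with 1 knockdown-labelled library left out. Such means vary less than single libraries. The nearest single shares were 64.5% in control replicate 4 and 65.5% in knockdown-labelled replicate 1. With a replicate block 0 members were called, and their median was 0.074. Libraries with the same number did not deviate together (r = −0.075, 0.005, −0.008 and 0.008), and 1 of 4 knockdown-labelled libraries correlated best with the control of its number. Members below 10 CPM had the widest intervals. Over these 10 genes the median SD of log2 CPM was 1.02 in the controls and 0.84 in the knockdown-labelled group. The part of depth in these values was not tested.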
